A study of Mus musculus with 7 samples.

Results

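Myc, Max and the partners that compete with Myc for Max were followed as RNA levels in mouse 3T3-L1 cells, a fibroblast-like line that can be driven to become adipocytes. The genes are Myc and Mycn, the shared partner Max, and the repressors Mxd1, Mxi1, Mxd3, Mxd4 and Mnt. They were taken by gene symbol, and all 8 were found among the 23996 genes of the deposited tables. Mycn was listed at 0 in every library, so 7 of the 8 passed the filter on low values and were tested.

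The series holds 7 total RNA sequencing libraries, 1 per condition. Cells that had grown preconfluent, that is, had not yet filled the dish, were treated with conditioned medium (Pro CM) or with MDI (Pro MDI), with no time given. Other cells were taken 4 h after conditioned medium (4h CM) or MDI (4h MDI), or 24 h after conditioned medium (24h CM) or MDI (24h MDI), and all were set against confluent cells from before differentiation (0h control). MDI is the differentiation medium with IBMX, which blocks cyclic nucleotide breakdown, the glucocorticoid dexamethasone, and insulin. Conditioned medium was MDI medium taken from 3T3-L1 cultures that had been differentiating for 48 h, so both media began as MDI. The cultures are of 1 cell line, with no genetic change named. The stated aim was to find a factor that matters for the differentiation of these cells.

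Myc is a transcription factor that binds DNA as a pair with Max and is known for switching on genes of ribosome building, metabolism and cell division. Max also pairs with the Mxd proteins, Mxi1 and Mnt, and these pairs bind the same E-box sequence, CACGTG, and recruit corepressors that shut genes down. In many tissues Myc falls and Mxd proteins appear as cells stop dividing and mature. Confluent 3T3-L1 cells given MDI are known to divide again before they fill with fat, and forced Myc expression is known to hold back their maturation.

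The labels call the cells adipocytes, and several markers of mature adipocytes were at or near 0 in most libraries. Leptin (Lep) was listed at 0 in every library, and adiponectin (Adipoq) was at most 0.930 FPKM, in 24h CM. The regulator Pparg (11.8 to 54.1 FPKM) and the fatty acid carrier Fabp4 (27.9 to 108 FPKM) were present in every library. Of the 6 adipocyte markers measured in 24h CM, 5 were higher by at least 1 (log2) in 24h CM than in 0h control (18.2% of all genes differed by that much in either direction), and 5 than in 24h MDI (3.42%). Among them the lipase Lipe was at 61.8 FPKM in 24h CM against 7.81 FPKM in 0h control, the lipid droplet gene Plin1 was at 3.75 FPKM in 24h CM against 0.0238 FPKM in 0h control, and resistin (Retn) was at 6.71 FPKM in 24h CM and listed at 0 in 0h control. In the limma tests described below, 0 of 6 tested adipocyte markers passed at 24h against 0h (11.6% of all genes did). For CM against MDI over all stages 0 of 6 passed (0% of all genes), and 1 rose at 24h against 4h (9.43%). FPKM counts fragments per kilobase of transcript, scaled for the size of a library, so levels can be set side by side between genes. The summed level of 7 preadipocyte and fibroblast markers was between 2073 and 6384 FPKM, against 50.4 to 247 FPKM for 10 adipocyte markers. The summed levels of muscle, endothelial, blood cell and epithelial markers reached at most 2.27 FPKM in any library.

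Over all genes the treated libraries summed to between 624626 and 714427 FPKM and the 0h library to 558532 FPKM. Read totals were not used here. From the steps between the lowest values, a read was estimated to be worth between 0.771 (Pro CM) and 1.09 (4h CM) times its worth in 0h, so depth was of the same order throughout. No condition has a second library. A pair of libraries was therefore compared by size alone, and a gap of 1 or more on the scale of log2(FPKM + 1) counted as a call. This scale understates the fold of low genes. Tests came from limma, fitted to all genes with stage and medium as terms. Their error comes from 2 residual degrees of freedom that hold the interaction of stage with medium and library noise, and it does not measure the spread between cultures. The contrasts with 0h share the 1 control library, and that library has no partner in the fit. In such bulk RNA, fewer cells of a type and less RNA per cell cannot be told apart.

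Promoter windows from RefSeq (GRCm38.p6, from 250 bases before to 50 bases after a gene's start) were found for 7 of the 8 genes, and none was given for Myc. The windows were searched on both strands for the E-box CACGTG, the site of the family itself, and for the cyclic AMP response element TGACGTCA, since IBMX raises cyclic AMP. An E-box stood in 3 of the 7 genes, Max, Mxd4 and Mnt, and in 7.15% of all 32851 windows of this length. No window of a member held TGACGTCA, which 1.79% of all windows hold. The stretch of 30 bases around each E-box (capitals) is shown on the gene's own strand, because the site that the network binds lies in the promoters of 3 of its own genes. The E-box of Max began 3 bases before the gene's start (chr12:76962234-76962263, minus strand), that of Mxd4 began 219 bases before it (chr5:34187912-34187941, minus strand), and that of Mnt 123 bases before it (chr11:74830789-74830818, plus strand).
Max: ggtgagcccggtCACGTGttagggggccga
Mxd4: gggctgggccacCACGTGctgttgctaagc
Mnt: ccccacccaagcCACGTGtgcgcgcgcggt

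Mxd1 and Mxd4 are the pair of repressors whose RNA moved in opposite directions at 4h against 0h. The 250 bases before their starts are shown whole, with any E-box in capitals. That of Mxd1 (chr6:86669160-86669409, minus strand) holds none, and that of Mxd4 (chr5:34187711-34187960, minus strand) holds the 1 already shown. A match is a description of the letters and does not show that a factor binds there.
Mxd1: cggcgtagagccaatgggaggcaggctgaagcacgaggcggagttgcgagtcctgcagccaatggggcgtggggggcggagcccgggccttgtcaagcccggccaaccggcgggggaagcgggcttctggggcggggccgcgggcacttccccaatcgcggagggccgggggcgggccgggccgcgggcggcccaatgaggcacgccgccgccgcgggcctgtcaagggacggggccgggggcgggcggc
Mxd4: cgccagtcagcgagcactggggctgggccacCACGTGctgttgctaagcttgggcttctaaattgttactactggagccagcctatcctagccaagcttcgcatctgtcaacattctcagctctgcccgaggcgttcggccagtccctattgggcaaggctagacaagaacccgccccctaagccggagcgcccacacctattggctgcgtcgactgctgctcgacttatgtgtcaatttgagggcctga

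Myc (chr15:61985341-61990361, plus strand) had the widest range of the 7 measured genes. Its level was 3.98 FPKM in 0h control, 97.1 FPKM in 4h CM, 136 FPKM in 4h MDI, 58.3 FPKM in 24h CM and 44.6 FPKM in 24h MDI. In preconfluent cells it was 49.4 FPKM in Pro CM and 46.4 FPKM in Pro MDI. Every treated library thus lay far above the control, with the 4 h libraries highest and the 24 h and preconfluent libraries close to each other. Among genes that reached 1 FPKM in the library, Myc was above 93.2% in 4h MDI and above 18.3% in 0h control. The highest library stood at 34.2 times the FPKM of the lowest. On the scale of log2(FPKM + 1) its range was 4.78, wider than that of 98.9% of 11724 genes.

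At 4 h Myc was 24.4 times higher in 4h CM and 34.2 times higher in 4h MDI than in 0h control. Its difference was above that of 99.7% of genes in both pairs. In limma Myc rose by 4.54 (log2, SE 0.30, adjusted p = 0.0243) at 4h against 0h, by 3.38 (SE 0.30, adjusted p = 0.0176) at 24h against 0h, and by 3.29 (SE 0.30, adjusted p = 0.00917) in preconfluent treated cells against 0h. Between the treated times it fell by 1.16 (SE 0.24, adjusted p = 0.0437) at 24h against 4h. The later decline was 3.05-fold in MDI, at 44.6 FPKM in 24h MDI against 136 FPKM in 4h MDI, and 1.67-fold in conditioned medium, at 58.3 FPKM in 24h CM against 97.1 FPKM in 4h CM. In the authors' deposited table, the q of Myc against 0h was 0.0569 in 4h CM, 0.0338 in 4h MDI, 0.204 in 24h CM and 0.277 in 24h MDI.

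The calls rest on few libraries. Without 4h CM, 4h MDI, 24h CM or 24h MDI, each left out in turn after the data had been seen, Myc at 4h against 0h changed by 4.18 to 4.90 and missed the threshold (adjusted p = 0.0502, 0.101, 0.0619 and 0.0628 in that order). Without 24h CM or 24h MDI the 24h rise was also not called (adjusted p = 0.0789 and 0.102), and the fall at 24h against 4h was not called without 4h MDI, 24h CM, 24h MDI, Pro CM or Pro MDI (adjusted p from 0.0544 to 0.298), nor after rescaling to TPM (adjusted p = 0.0529). In preconfluent cells against 0h the rise of Myc stayed between 3.22 and 3.36 and was called with any 1 treated library left out (adjusted p from 0.0188 to 0.0424).

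Mycn, a relative of Myc best known from the developing nervous system (chr12:12936093-12941836, minus strand), was listed at 0 in all 7 libraries, and the authors' deposited tables mark it as not tested. Mycl, the other Myc relative, was at most 0.162 FPKM, in Pro CM. Myc was therefore the only gene of the 3 with a level above 1 FPKM in any library.

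**Figure D1:**
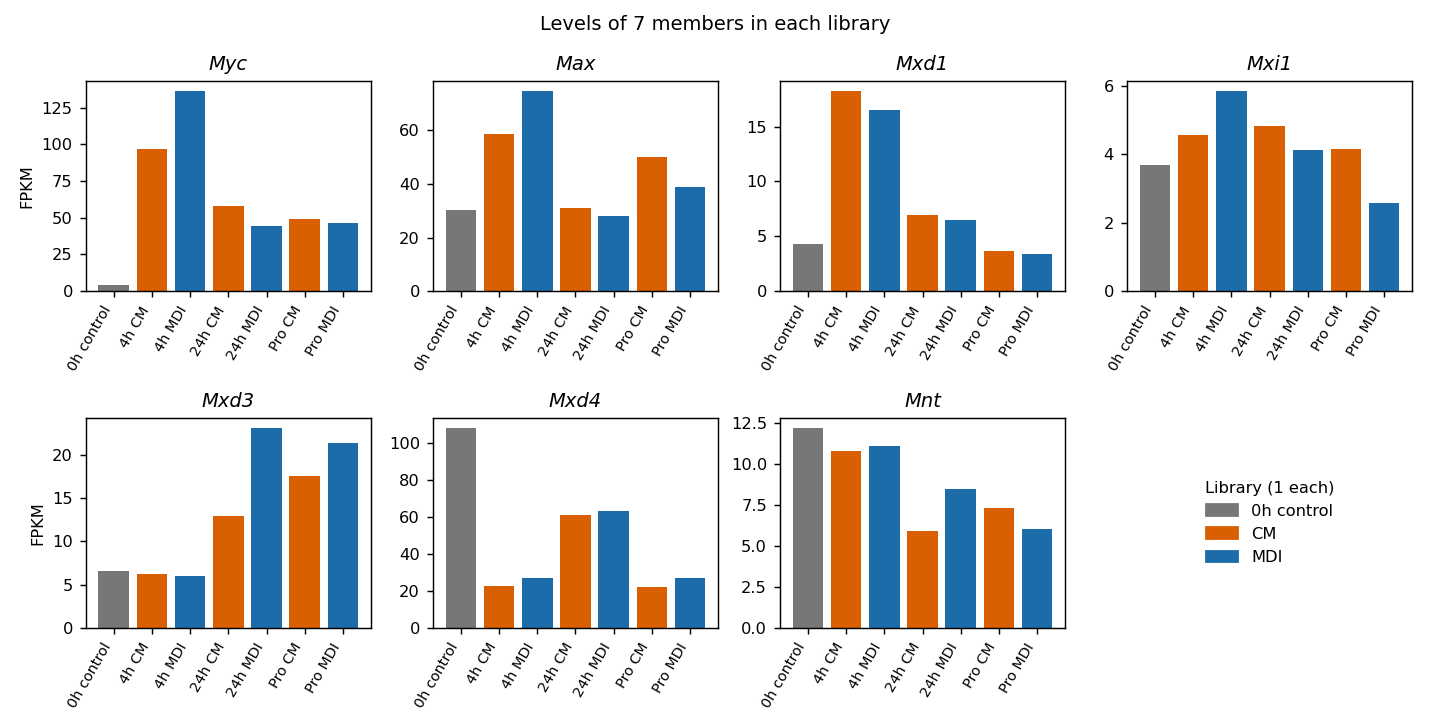
FPKM (vertical axes, each from 0) of the 7 measured members in each of the 7 libraries, 1 bar a library, with the control in grey, CM in orange and MDI in blue. Myc is lowest and Mxd4 highest in 0h control, Mxd1 is highest in both 4 h libraries, and Mxd3 is highest in 24h MDI and the preconfluent libraries.

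Max (chr12:76937269-76962248, minus strand), the partner that Myc and the repressors share, moved within a narrower range than Myc. It was at 30.4 FPKM in 0h control, 58.5 FPKM in 4h CM, 74.6 FPKM in 4h MDI, 31.1 FPKM in 24h CM and 28.1 FPKM in 24h MDI. In preconfluent cells it was at 49.9 FPKM in Pro CM and 38.8 FPKM in Pro MDI. Both 4 h libraries and both preconfluent libraries lay above the control, while the 24 h libraries were on either side of it. The log2 change at 4h against 0h was 1.09 (SE 0.26, adjusted p = 0.0557), just short of the threshold. At 24h against 4h Max fell by 1.14 (SE 0.21, adjusted p = 0.0370), and its changes at 24h against 0h (-0.04) and in preconfluent cells against 0h (0.52) were not called. The fall at 24h was not called without 4h MDI, 24h CM or 24h MDI (adjusted p from 0.127 to 0.267). With no filter on low values, the calls of Myc, Max, Mxd1 and Mxd3 at 24h against 4h were lost and that of Mxd4 was kept.

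The ratio of the 2 RNAs was above its control level in every treated library. Myc over Max was 0.131 in 0h control, 1.66 in 4h CM, 1.83 in 4h MDI, 1.88 in 24h CM and 1.59 in 24h MDI. It was 0.990 in Pro CM and 1.20 in Pro MDI. At 24 h the ratio lay near its 4 h level, and both RNAs were lower at 24 h.

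Among the repressors, Mxd4 (chr5:34176580-34187710, minus strand), a corepressor-recruiting partner of Max, changed in the direction opposite to Myc from 0h to 4 h and from 4 h to 24 h. Its level was 108 FPKM in 0h control, 22.8 FPKM in 4h CM, 27.3 FPKM in 4h MDI, 61.1 FPKM in 24h CM and 63.1 FPKM in 24h MDI. Preconfluent cells had 22.2 FPKM in Pro CM and 26.8 FPKM in Pro MDI. The control was the highest library, the 24 h libraries lay between, and the 4 h and preconfluent libraries overlapped at the low end. Myc was close between the 24 h and preconfluent libraries, and Mxd4 was not. Mxd4 fell by 2.08 (SE 0.17, adjusted p = 0.0243) at 4h against 0h and by 2.11 (SE 0.17, adjusted p = 0.00846) in preconfluent cells against 0h. At 24h against 4h it rose by 1.28 (SE 0.14, adjusted p = 0.0182). Its change of -0.79 at 24h against 0h missed the threshold (SE 0.17, adjusted p = 0.0564) and passed it after rescaling to TPM, at -1.04 (adjusted p = 0.0395).

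At 0h Mxd4 was the most abundant of the 8 genes, 27.2 times the level of Myc. In the 4 h libraries the order was turned round, with Myc at 4.26 times the level of Mxd4 in 4h CM and above that in 4h MDI. By 24 h the 2 levels were near each other, at 0.954 in 24h CM and 0.707 in 24h MDI.

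Mxd1 (chr6:86647045-86669159, minus strand), known as Mad1 and often induced as cells mature, rose at 4 h together with Myc. It stood at 4.32 FPKM in 0h control, 18.2 FPKM in 4h CM, 16.5 FPKM in 4h MDI, 6.98 FPKM in 24h CM and 6.44 FPKM in 24h MDI. Preconfluent cells had 3.65 FPKM in Pro CM and 3.42 FPKM in Pro MDI. The 4 h libraries stood apart from the other 5, and the preconfluent libraries were the lowest. Mxd1 rose by 1.79 (SE 0.18, adjusted p = 0.0254) at 4h against 0h and fell by 1.25 (SE 0.15, adjusted p = 0.0190) at 24h against 4h. Its changes at 24h against 0h (0.53, adjusted p = 0.130) and in preconfluent cells against 0h (-0.23, adjusted p = 0.377) were not called.

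At 4h against 0h neither the Mxd1 nor the Mxd4 call held when 4h CM, 4h MDI, 24h CM or 24h MDI was left out (adjusted p from 0.0502 to 0.101), and at 24h against 4h both were lost without 4h MDI, 24h CM or 24h MDI. The changes themselves then lay between 1.76 and 1.81 for Mxd1 and between -2.12 and -2.03 for Mxd4 at 4h against 0h. In preconfluent cells against 0h the fall of Mxd4 was called with any 1 treated library left out. The authors' deposited table gives Mxd1 q = 0.654 in 4h CM and 0.744 in 4h MDI, and Mxd4 q = 0.704 in 4h CM and 0.666 in 4h MDI, each against 0h.

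Mxd3 (chr13:55322055-55329730, minus strand), a member known from dividing cells in S phase, moved later. It was at 6.55 FPKM in 0h control, 6.27 FPKM in 4h CM, 5.97 FPKM in 4h MDI, 12.9 FPKM in 24h CM and 23.2 FPKM in 24h MDI. In preconfluent cells it was at 17.6 FPKM in Pro CM and 21.4 FPKM in Pro MDI. The control and the 4 h libraries sat together at the low end, and the 24 h and preconfluent libraries lay above them. Mxd3 rose by 1.36 (SE 0.25, adjusted p = 0.0360) at 24h against 4h and by 1.43 (SE 0.31, adjusted p = 0.0342) in preconfluent cells against 0h, while 1.28 at 24h against 0h was not called (SE 0.31, adjusted p = 0.0667). The first call was lost without 4h MDI, 24h CM, 24h MDI or Pro CM (adjusted p from 0.0515 to 0.255), and the second without 24h CM, 24h MDI, Pro CM or Pro MDI (adjusted p from 0.0589 to 0.123) and with no filter on low values (adjusted p = 0.0679).

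Other measured levels were, like Mxd3, higher in the 24 h and preconfluent libraries than in 0h control. Its locus overlaps Prelid1, a mitochondrial lipid-transfer gene on the opposite strand, and whether the libraries keep strand is not given in the sources used here, so reads of the 2 genes cannot be told apart where they overlap. Prelid1 was at 231 FPKM in 0h control, 238 FPKM in 4h CM, 234 FPKM in 4h MDI, 278 FPKM in 24h CM and 458 FPKM in 24h MDI. Preconfluent cells had 340 FPKM in Pro CM and 390 FPKM in Pro MDI, so the 2 genes shared their high libraries. Mxd3 as a percentage of Prelid1 ranged from 2.55% in 4h MDI to 5.48% in Pro MDI, with 2.84% in 0h control. The summed level of 10 division markers was 136 FPKM in 0h control, 328 in 4h CM, 362 in 4h MDI, 571 in 24h CM, 677 in 24h MDI, 1263 in Pro CM and 1085 in Pro MDI. In each 4 h library 7 of the 10 markers were below 0h control and 3 were above it. Pcna was the largest part of the 4 h sums, at 238 FPKM in 4h CM and 224 FPKM in 4h MDI. Its level in 0h control was 55.9 FPKM. Of these 10 markers, 8 rose at 24h against 4h and 1 fell (Pcna), where 9.43% of all genes rose and 8.71% fell, and all 10 rose in preconfluent cells against 0h, where 13.3% of all genes rose. The part of Prelid1 and of division in the Mxd3 result was not tested.

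Mnt (chr11:74830924-74845725, plus strand), the broadly expressed repressor, and Mxi1 (chr19:53310506-53375810, plus strand), a close relative of the Mxd genes, passed no test. Mnt was at 12.2 FPKM in 0h control, 10.8 FPKM in 4h CM, 11.1 FPKM in 4h MDI, 5.92 FPKM in 24h CM and 8.46 FPKM in 24h MDI, with 7.30 FPKM in Pro CM and 6.06 FPKM in Pro MDI. The control was the highest of the 7 libraries and the 4 h libraries were next. Its changes were -0.15 at 4h against 0h (adjusted p = 0.707), -0.71 at 24h against 0h (SE 0.27, adjusted p = 0.154) and -0.79 in preconfluent cells against 0h (SE 0.27, adjusted p = 0.0915). Mxi1 was at 3.68 FPKM in 0h control, 4.57 FPKM in 4h CM, 5.85 FPKM in 4h MDI, 4.83 FPKM in 24h CM and 4.13 FPKM in 24h MDI, with 4.15 FPKM in Pro CM and 2.58 FPKM in Pro MDI. Its values lay on both sides of the control, and its changes against 0h were between -0.13 and 0.40 (SE 0.30).

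**Figure D2:**
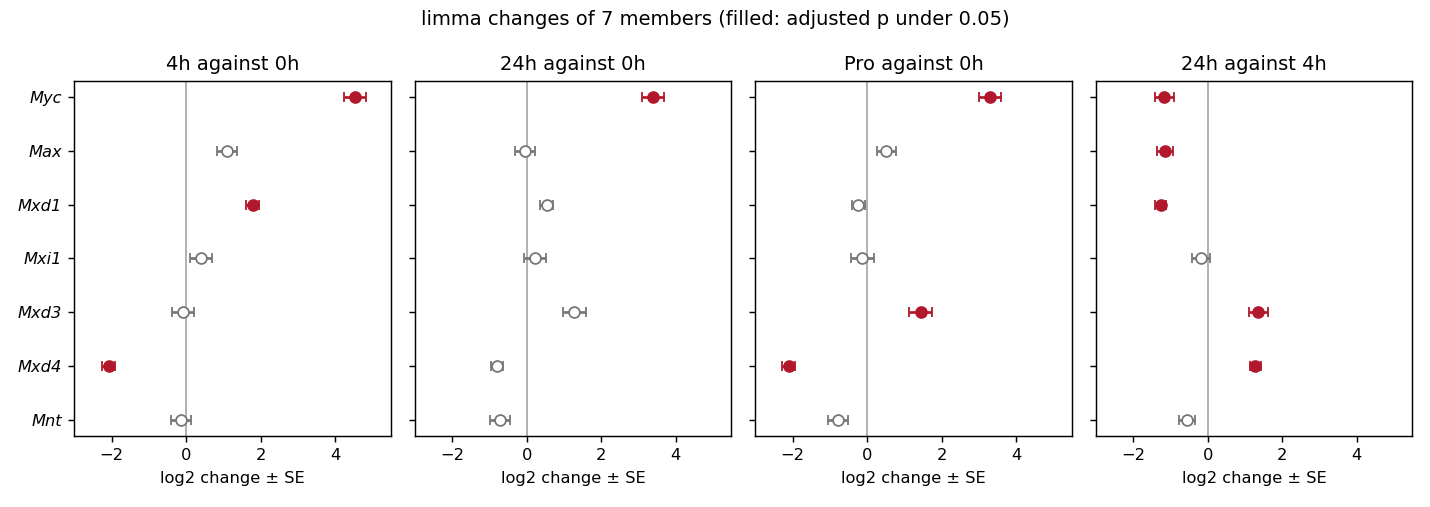
Log2 change with its SE from limma (horizontal axes) for the 7 tested members in 4 time contrasts, filled where the adjusted p is under 0.05. Myc is up in each contrast with 0h, Mxd4 and Mxd1 lie on opposite sides of 0 at 4h, and at 24h against 4h Myc, Max and Mxd1 are down while Mxd3 and Mxd4 are up.

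Counted over the 7 tested genes, 2 rose and 1 fell at 4h against 0h, where limma called 16.2% of all 11724 genes (8.23% rose and 7.99% fell). The 24h libraries against 0h had 1 rise, with 11.6% of all genes called (5.27% rose and 6.37% fell). The contrast of 24h with 4h had 2 rises and 3 falls, with 18.1% of all genes called (9.43% rose and 8.71% fell). In preconfluent cells against 0h 2 rose and 1 fell, with 27.1% of all genes called (13.3% rose and 13.8% fell). These counts cover 7 genes, and leaving out 1 library at a time took them to between 0 and 3 at 4h, 0 and 1 at 24h, 0 and 5 at 24h against 4h, and 2 and 3 in preconfluent cells. Counts of 0 came without 4h CM, 4h MDI, 24h CM or 24h MDI at 4h, without 24h CM or 24h MDI at 24h, and without 4h MDI, 24h CM or 24h MDI at 24h against 4h, where 3 calls were left without Pro CM. Rescaling to TPM lowers every treated library against 0h and turned the split of all calls to 627 rises and 2154 falls at 4h against 0h (965 and 937 without it), 422 and 1125 at 24h against 0h (618 and 747), and 1285 and 2102 in preconfluent cells (1563 and 1619). The direction of every member call in these contrasts was kept in TPM.

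By size alone, 3 of the 7 were past a difference of 1 between 4h CM and 0h control (18.9% of all genes were) and 4 were between 4h MDI and 0h control (27.6%). The added gene was Max, higher by 1.27 in 4h MDI and by 0.92 in 4h CM. The count was 1 for 24h CM (18.2%) and 2 for 24h MDI (20.0%), and 3 for each of Pro CM (29.9%) and Pro MDI (25.8%), all against the same 0h library. Set against the 4 h library of its own medium, 24h CM had 2 (13.7%) and 24h MDI had 5 (25.7%).

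The makeup of the repressor RNA changed as well. The 5 repressor genes summed to 135 FPKM in 0h control, 62.7 FPKM in 4h CM, 66.7 FPKM in 4h MDI, 91.7 FPKM in 24h CM and 105 FPKM in 24h MDI. Preconfluent cells had 54.9 FPKM in Pro CM and 60.3 FPKM in Pro MDI. Mxd4 made up 80.2% of this sum at 0h, 36.4% in 4h CM, 40.9% in 4h MDI, 66.6% in 24h CM and 59.9% in 24h MDI. At 4 h the share of Mxd1 was 29.1% in 4h CM and 24.8% in 4h MDI, against 3.19% at 0h. Mxd3 took 32.0% in Pro CM and 35.5% in Pro MDI, against 4.84% at 0h. The repressor second to Mxd4 was Mnt at 0h, Mxd1 at 4 h, and Mxd3 both at 24 h and in preconfluent cells.

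Myc over the summed repressors was 0.0294 in 0h control, 1.55 in 4h CM, 2.04 in 4h MDI, 0.636 in 24h CM and 0.424 in 24h MDI. In preconfluent cells it was 0.899 in Pro CM and 0.770 in Pro MDI. Myc RNA exceeded the summed repressor RNA only in the 4 h libraries. These are ratios of RNA in single libraries, with no error and no measure of protein.

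**Figure D3:**
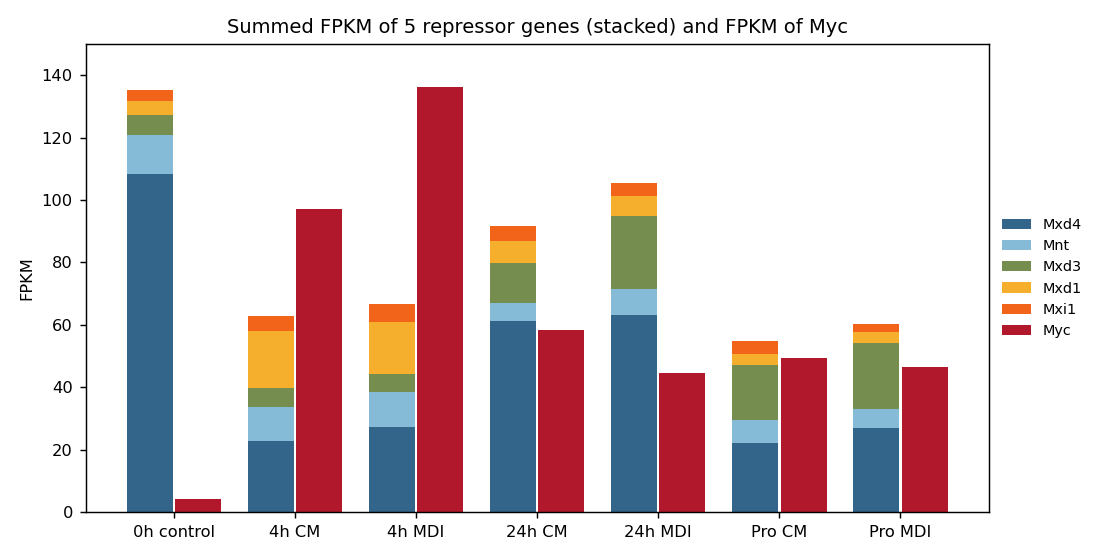
Summed FPKM of the 5 repressor genes (stacked bars, left of each pair) and FPKM of Myc (right of each pair) in each of the 7 libraries, on a linear axis from 0. Myc exceeds the stack in 4h CM and 4h MDI, and the stack is mostly Mxd4 in 0h control.

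No member differed by at least 1 between CM and MDI of the same stage, where 4.06% of genes did so at 4 h, 3.42% at 24 h and 3.45% in preconfluent cells. In limma, over the 6 treated libraries, no gene of 11463 passed at an adjusted p of 0.05 (0% called), and 143 genes had an unadjusted p under 0.05. None of the 7 members did, with unadjusted p from 0.162 (Mxd3) to 0.976 (Myc). The mean difference of CM minus MDI was -0.33 for Mxd3 (SE 0.20) and -0.01 for Myc (SE 0.20), each with an adjusted p of 1.00.

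Stage by stage, 5 of the 7 members had medium differences of both signs. Mxd1 was higher in CM at all 3 stages (0.13, 0.10 and 0.07) and Mxd4 lower in CM at all 3 (-0.25, -0.05 and -0.26), by small amounts. Myc was lower by 0.48 in CM than in MDI at 4 h and higher by 0.38 in CM at 24 h. Max and Mxi1 were likewise lower in CM at 4 h (-0.35 and -0.30) and higher in CM in preconfluent cells (0.35 and 0.52). The largest gap of a member was that of Mxd3 at 24 h, with 12.9 FPKM in 24h CM against 23.2 FPKM in 24h MDI, a difference of -0.80. Each of these differences rests on 1 library of each medium.

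**Figure D4:**
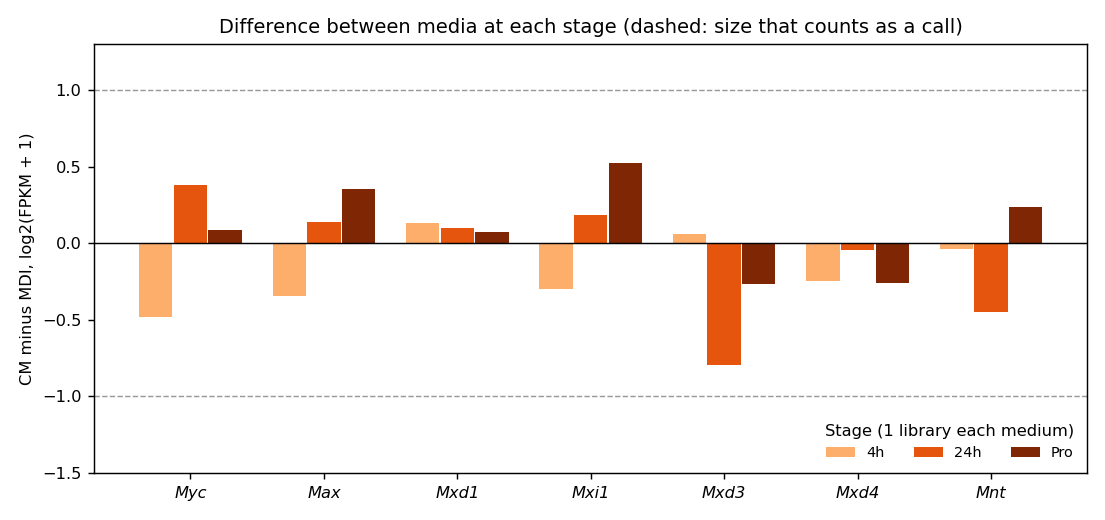
CM minus MDI in log2(FPKM + 1) (vertical axis) for each member at 4h, 24h and in preconfluent cells, 1 library per medium and stage, with dashed lines at the size of 1 used for a call. No bar reaches the dashed lines, and the bar of Mxd3 at 24h, at -0.80, comes nearest.

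Genes described elsewhere as activated by Myc were compared with its level. The list has 42 genes of ribosome building, polyamine and nucleotide synthesis and growth, and all 42 were tested. It and the lists below were chosen with earlier results of these data known, so their counts describe and are no independent check. At 4h against 0h, 34 rose and 0 fell, where 8.23% of all genes rose, and the median change was 1.58 against -0.04 over all genes tested. At 24h against 0h 15 rose and 0 fell, where 5.27% of all genes rose (median 1.04, all genes 0.00). In preconfluent cells against 0h 38 rose and 0 fell, where 13.3% of all genes rose (median 1.72, all genes -0.03). At 24h against 4h 0 rose and 10 fell, where 8.71% of all genes fell (median -0.50, all genes -0.01). The 3 contrasts with 0h share their control library. The list's calls at 4h against 0h went to 0 when 4h CM, 4h MDI, 24h CM or 24h MDI was left out, those at 24h against 0h to 0 without 24h CM or 24h MDI and to 7 without 4h CM or 4h MDI, and those at 24h against 4h to 0 without 4h MDI, 24h CM or 24h MDI and to 6 without Pro CM. In preconfluent cells against 0h 10 calls were left without Pro CM and 23 without 24h CM or 24h MDI.

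Nop56, a core protein of the particles that modify ribosomal RNA, was at 35.7 FPKM in 0h control, 283 FPKM in 4h CM, 359 FPKM in 4h MDI, 163 FPKM in 24h CM and 171 FPKM in 24h MDI, with 316 FPKM in Pro CM and 278 FPKM in Pro MDI. All treated libraries lay above the control. It rose by 3.12 (SE 0.21, adjusted p = 0.0243) at 4h and by 3.02 (adjusted p = 0.00846) in preconfluent cells, and its rise at 24h was also called (adjusted p = 0.0188), each against 0h. At 4h the ribosome assembly factor Rrp12 rose by 2.89, the nucleolar protein Nolc1 by 2.83 and the transferrin receptor Tfrc by 2.78. Ornithine decarboxylase (Odc1), which opens polyamine synthesis and is a textbook Myc target, had the largest rise in preconfluent cells, 3.49 (SE 0.27, adjusted p = 0.00846). Its levels were 292 FPKM in Pro CM and 261 FPKM in Pro MDI, against 23.7 FPKM in 0h control. Lactate dehydrogenase A (Ldha) rose at 24h (adjusted p = 0.0321), with 569 FPKM in 24h CM and 1123 FPKM in 24h MDI, against 173 FPKM in 0h control. The nucleotide kinase Nme1 rose by 1.63 and Nolc1 by 1.59 at that time. The falls at 24h against 4h were led by Rrp12 (-1.57), Nolc1 (-1.24), the purine synthesis enzyme Ppat (-1.19) and spermidine synthase, Srm (-1.15).

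Genes described as repressed by Myc moved less uniformly. Of 9, 8 were tested, since Cdkn1c was below 1 FPKM throughout. None passed at 4h or 24h against 0h, with medians of -0.60 (all genes -0.04) and -0.68 (all genes 0.00). In preconfluent cells against 0h 4 fell and 0 rose, where 13.8% of all genes fell (median -1.35, all genes -0.03). They were the growth arrest gene Gas1 (-3.50, SE 0.68, adjusted p = 0.0286), the cyclin-dependent kinase inhibitors Cdkn2b (-2.33) and Cdkn1b (-0.90), and the stress gene Gadd45a (-1.71). Ndrg1, a differentiation and stress gene, fell by 2.51 at 24h against 4h (SE 0.40, adjusted p = 0.0304). It was the 1 call of the 8 there, where 8.71% of all genes fell. Before that, Ndrg1 was at 53.6 FPKM in 4h CM and 30.3 FPKM in 4h MDI, against 13.7 FPKM in 0h control. That rise of 1.49 was not called (adjusted p = 0.0980). By size alone against 0h control, 1 of the 8 was higher and 2 were lower in 4h CM, where 18.9% of all genes were past that size in either direction. The counts were 1 and 3 for 4h MDI (27.6% of all genes), 2 and 2 for 24h CM (18.2%), and 1 and 2 for 24h MDI (20.0%). They were 1 and 5 for Pro CM (29.9%) and 1 and 4 for Pro MDI (25.8%). Gas1 is named for growth arrest. Cell density differs between the preconfluent libraries and 0h together with the medium, so density and medium cannot be told apart there.

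In the 4 h pair of media, where 5 of the 7 members were lower in CM (Myc, Max, Mxi1, Mxd4 and, by 0.04, Mnt), 40 of 41 measured genes of the activated list were also lower in CM than in MDI, with a median difference of -0.30. Over all genes 46.3% were lower, and the median was 0.03. All 8 of the repressed list were higher in CM there, with a median of 0.43, where 53.7% of all genes were higher. At 24 h 21 of 41 activated-list genes were lower in CM, near the 48.7% of all genes that were. In preconfluent cells 10 of 42 activated-list genes were lower in Pro CM than in Pro MDI (median 0.12). So were 7 of 8 repressed-list genes (median -0.51), and over all genes 51.9% were lower there. No activated-list gene differed by at least 1 between media at any stage. Of the repressed list, 1 of 8 genes was past that size at 24 h, where 3.42% of all genes were. It was Cebpa, a regulator of adipocyte maturation, with 38.3 FPKM in 24h CM against 16.0 FPKM in 24h MDI. In preconfluent cells 2 of 8 were past that size, where 3.45% of all genes were. They were Gas1 (18.9 FPKM in Pro CM against 50.9 FPKM in Pro MDI) and Ndrg2 (2.69 FPKM in Pro CM against 9.96 FPKM in Pro MDI). Each of these counts comes from 1 pair of libraries, and genes of a pair share its library differences.

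Of 21 coactivator and corepressor genes, 2 rose at 4h against 0h (8.23% of all genes rose), the chromatin adaptor Wdr5 (1.33, SE 0.26, adjusted p = 0.0413) and the helicase Ruvbl2 (1.29, SE 0.17, adjusted p = 0.0306). Ruvbl2 also rose at 24h against 0h (1.13), the 1 call of the list there (5.27% of all genes rose). These counts are near the share of all genes. The list had 2 falls at 24h against 4h: Trrap, the scaffold by which Myc recruits acetyltransferases (-1.07), and Sin3b, a scaffold of Mxd corepressor complexes (-0.86), where 8.71% of all genes fell. In preconfluent cells 4 rose and the corepressor Ncor1 fell (-0.87, SE 0.20, adjusted p = 0.0390), where 13.3% of all genes rose and 13.8% fell. Those that rose were Ruvbl2 (1.60), Wdr5 (1.26), the remodelling subunit Actl6a (1.10) and the elongation kinase Cdk9 (0.69).

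Of 14 genes that govern how long Myc protein lasts, 1 rose and 2 fell at 4h against 0h, where 8.23% of all genes rose and 7.99% fell. The deubiquitinase Usp36, which protects Myc, was at 15.5 FPKM in 4h CM and 21.3 FPKM in 4h MDI, against 4.42 FPKM in 0h control, a rise of 1.82 (SE 0.28, adjusted p = 0.0326). The ubiquitin ligase subunit Fbxo32 fell by 1.46 (SE 0.21, adjusted p = 0.0306) and Ppp2r5a, a subunit of the phosphatase that acts on Myc, by 1.00 (SE 0.22, adjusted p = 0.0489). At 24h against 0h Fbxo32 (-1.38) and Ppp2r5a (-1.10) were again the 2 that fell, and the mitotic kinase Aurka rose by 3.06 and C330027C09Rik, a synonym of Cip2a, whose protein shields Myc from that phosphatase, by 2.21 (5.27% of all genes rose and 6.37% fell). Usp36 fell by 1.11 at 24h against 4h, the 1 fall of that list, while Aurka (2.78) and C330027C09Rik (2.82) rose (9.43% of all genes rose and 8.71% fell). In preconfluent cells 5 rose, led by Aurka (3.68), and 2 fell, where 13.3% of all genes rose and 13.8% fell. Aurka is also a division gene, and the summed division markers were high in the same libraries.

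Of 7 further relatives in the tables, 5 were tested. Mlx, a partner in the parallel glucose-sensing branch, rose by 0.99 at 4h against 0h (SE 0.19, adjusted p = 0.0411), the 1 call of 5 in a contrast where 8.23% of all genes rose. Mlxip, its glucose-sensing partner, fell by 1.00 at 24h against 4h (SE 0.21, adjusted p = 0.0442), with 9.25 FPKM in 24h CM and 8.40 FPKM in 24h MDI, against 17.0 FPKM in 4h CM and 20.5 FPKM in 4h MDI. Mlxipl, the other partner, was at most 0.00751 FPKM. No other call was made in this list.

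Genes with the most similar profile over the 7 libraries were ranked by Pearson's r of log2(FPKM + 1) among 5677 genes. With 7 single libraries that share stages and depth, these values only describe. Closest to Myc were Bzw1 (r = 0.99), Nomo1 (0.99), Pde4b (0.98), Slc25a3 (0.98) and Tmem189 (0.98). Bzw1, a translation regulator, was at 106 FPKM in 0h control, 811 FPKM in 4h CM, 1042 FPKM in 4h MDI, 530 FPKM in 24h CM and 437 FPKM in 24h MDI, with 614 FPKM in Pro CM and 567 FPKM in Pro MDI. Pde4b, which breaks down cyclic AMP, was at 33.1 FPKM in 4h CM and 39.7 FPKM in 4h MDI, against 6.19 FPKM in 0h control.

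For Max the closest genes were Rab6a, Tmem248 and the chaperone Hspa5 (r between 0.99 and 1.00), and for Mxd1 Ccnl1 (0.99), Gnaq and Ptges (0.98 each). Mxd3 was closest to Sae1, Cit and Nsmce4a (0.99 each), of which Cit encodes a kinase of cytokinesis. Mxd4 was closest to Athl1, Ypel3 and Cyb561a3 (0.98 to 0.99). Ypel3 was between 5.47 and 20.0 FPKM in the treated libraries, against 53.2 FPKM in 0h control. For Mnt the closest were the matrix genes Aebp1 (0.98) and Ccdc80 (0.95) and Rnf150 (0.96), and for Mxi1 Srsf5 (0.98), Klf10 (0.97) and Aff1 (0.96). No gene appeared for more than 1 member.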

How the data were processed

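Total RNA of 3T3-L1 cells was extracted with Trizol and made into libraries by a standard Illumina method, per the labels' protocols. TopHat2 2.0.13 and Cuffdiff 2.2.0 are named in the submitters' processing notes. For the genome build, strandedness, read length and any selection of polyadenylated RNA, the sources used here state nothing. The authors deposited 7 tables of all genes, each with FPKM values of 2 libraries and, per the file headers, with a p-value and a q-value from Cuffdiff for that comparison. The p-value and q-value in the authors' deposited tables compare 2 unreplicated libraries and are quoted only as theirs. Each library's FPKM values were equal in every table that holds it (largest difference 1.1e-16), and the tables were joined into 1 matrix of 23996 genes. The libraries of a table were taken from its own sample names. Smaller sheets were not used here, and 1 empty line per table was dropped.

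Coordinates are as in the tables and were read as GRCm38: of 22308 genes with a RefSeq GRCm38.p6 entry on the same chromosome, 14387 (64.5%) share its start or end, and Myc, Mycn and Mxd4 share both. Python 3.11.15, R 4.3.3 and limma 3.58.1 were used. Pairs of libraries were called at a gap of 1 or more in log2(FPKM + 1), with no test, among genes that reached 1 FPKM in either library. limma with an intensity trend was fitted to log2(FPKM + 1) of genes that reached 1 FPKM in any library, with Benjamini-Hochberg adjustment over all genes tested at 0.05. Stage and medium were the terms of the time contrasts (7 libraries), and stage was a block for CM against MDI (6 libraries). Both leave 2 residual degrees of freedom. The steps were tested on simulated data.

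Named were all 8 members, the list genes that passed (up to 4 per direction and contrast, largest change first) and, for likeness, the 3 closest genes (5 for Myc) among those that reached 5 FPKM and had a range of at least 1 on the log2 scale. Cdkn1c, Mycl, Mlxipl, Prelid1, Cebpa, Ndrg2 and the adipocyte markers were named after their values were seen. The members and the 12 gene lists were chosen with earlier results of these data known. A gene of the list on Myc protein turnover is not reported here. Alternatives were a pseudocount of 0.1 or 5, no filter on low values, rescaling to TPM or to a median ratio of 1, no trend, a threshold of 0.1 and leaving out stages, and, chosen after seeing the data, leaving out each library.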

Additional observations from a re-analysis of the deposited data

Results flagged for a closer look

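CM minus MDI, in log2(FPKM + 1), had opposite signs at different stages for 5 members, with gaps of more than 0.5. None of these gaps was tested, because each medium has 1 library per stage. For Myc the difference was -0.48 at 4h and 0.38 at 24h, a gap of 0.863, and it was 0.09 in preconfluent cells, a gap to 4h of 0.572. For Max it was -0.35 at 4h and 0.35 in preconfluent cells, a gap of 0.701. For Mxi1 it was -0.30 at 4h and 0.52 in preconfluent cells, a gap of 0.822. For Mxd3 it was 0.06 at 4h and -0.80 at 24h, a gap of -0.860. For Mnt it was -0.45 at 24h and 0.23 in preconfluent cells, a gap of 0.683.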

How the results depend on the processing

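No paired analysis was possible because each condition has 1 library and the labels give no replicate numbers to pair by. The fit of CM against MDI already sets the media side by side within each stage. Of the members' 3 calls at 4h against 0h, 1 was left without the 24h libraries, and the 34 calls of the Myc-activated list became 17 with no filter on low values and 0 without the 24h libraries. At 24h against 0h the 1 member call became 2 with a pseudocount of 5, 2 after rescaling to TPM and 3 at a threshold of 0.1, and the 15 list calls became 8 with no filter and 28 at a threshold of 0.1. At 24h against 4h the 5 member calls became 1 with no filter, and the 10 list calls became 0 with no filter and 18 at a threshold of 0.1. With 1 library left out at a time, member calls ranged from 0 to 3 (4h against 0h), 0 to 1 (24h against 0h), 0 to 5 (24h against 4h) and 2 to 3 (Pro against 0h), and list calls from 0 to 28, 0 to 13, 0 to 12 and 10 to 39. These fits have 1 residual degree of freedom, and the lone library of a stage is assumed to vary like the others. The exception is the fit without 0h control, which enters only the ranges of 24h against 4h and keeps 2 residual degrees of freedom. Over all genes, calls without 1 library ranged from 11 to 1463, 13 to 1190, 0 to 2202 and 677 to 3349.

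Signs of uncalled changes turned with the library left out. Mxd3 at 4h against 0h was -0.38 without 4h CM and 0.21 without 4h MDI. Both 4 h libraries lay below 0h control for Mxd3 (-0.05 in 4h CM and -0.12 in 4h MDI), so its sign turned through the medium term of the fit. Mxi1 at 24h against 4h was -0.50 without 4h CM and 0.15 without 4h MDI. Max at 24h against 0h was -0.11 without 24h CM and 0.027 without 24h MDI, and Mxi1 in preconfluent cells was -0.42 without Pro CM and 0.16 without Pro MDI. For CM against MDI, Myc was 0.056 in TPM and 0.23 without the 4h libraries, Max -0.10 and Mxi1 -0.056 without the Pro libraries, and Mnt 0.097 without the 24h libraries. TPM lowered every treated library by 0.16 to 0.36 (log2) against 0h. After it, Max in 4h MDI (0.93) was under the size for a call, while Mxd4 in 24h CM (-1.01) and 24h MDI (-1.08) and Mnt in 24h CM (-1.15) and Pro MDI (-1.10) were past it. The causes were not tested.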
